A study of Mus musculus with 11 samples.

Results

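Collagen chain genes were taken as every gene in the count tables whose symbol is Col, a number, the letter a and a second number. This rule found 44 of the 24062 genes listed. The tables come from RNA-seq of primary mesenchymal cells from fetal mouse lungs at embryonic day 15, which the authors obtained by digesting the lungs, letting cells adhere to culture plastic and passaging them at least once. Sp3 is a transcription factor that binds GC-rich promoter elements, and the study asked how gene expression in these cells differs when it is missing. Of the 11 libraries, 4 are labelled Sp3+/+ (468-4, 685-2, 697-1 and 697-3), 4 are labelled Sp3+/- (468-3, 685-5, 685-7 and 697-4) and 3 are labelled Sp3-/- (685-1, 697-2 and 697-5). The labels name no treatment, sex or strain, every title carries the same word for control, and they do not say whether 1 library is 1 embryo, so p-values measure the spread between these libraries. Cells taken by adhesion are a mixed population, and genotypes were not sorted to a single cell type.

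Collagens are the main fibrous proteins of the extracellular matrix. Each molecule is a triple helix of chains, and every chain has its own gene, so a cell sets the type of collagen it makes by the chains it transcribes. Fibrillar collagens build the banded fibrils that carry tension, basement membrane collagens form the sheet under epithelia and vessels, FACIT (fibril-associated, with interrupted triple helices) collagens coat fibrils, network collagens form lattices, beaded filament collagens form microfibrils at the cell border and transmembrane collagens are anchored in the plasma membrane. In the developing lung, mesenchymal cells are a major source of the interstitial collagens around the growing airways.

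The libraries held between 9849111 and 59297495 reads on genes, with the fewest in Sp3-/- 697-5. Sp3 itself lay between 5.94 and 6.75 log2 CPM (CPM is the read count scaled to the depth of the library) in Sp3+/+, between 5.71 and 6.15 in Sp3+/- and between 3.89 and 4.23 in Sp3-/-. It was lower by 2.30 on the log2 scale in Sp3-/- than in Sp3+/+ (edgeR, adjusted p = 0.00611), so the labels hold for this gene. Library titles end in no suffix, 2 or 3, and the sources used here do not say what the suffix means. All 3 Sp3-/- libraries have no suffix, and of the others only Sp3+/+ 468-4 and Sp3+/- 697-4 share that, so genotype and suffix can be told apart only through these 2 libraries. The file of 697-4 carries the suffix 2 in its name although its title has none. Across all genes, 468-4 and 697-4 deviated from their genotype means together, with a correlation of 0.708 across genes. Results below are therefore given with and without the suffix as a covariate.

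Markers of other cells were read beside the collagens. The summed CPM of 9 mesenchyme markers lay between 3480 and 3800 in Sp3+/+, between 3410 and 3740 in Sp3+/- and between 2380 and 2430 in Sp3-/-, with Meox2 at 0 in 2 libraries. Vim made up most of this sum, at 11.40 to 11.59 log2 CPM in Sp3+/+, 11.39 to 11.49 in Sp3+/- and 10.99 to 11.07 in Sp3-/-. Pdgfrb, the highest of the others, reached 9.08. The 8 macrophage markers summed to 535 to 2820 CPM in Sp3+/+, 322 to 2730 in Sp3+/- and 2740 to 10200 in Sp3-/-, and the highest Sp3+/+ and Sp3+/- values were those of 468-4 and 697-4. The 6 mesothelial markers summed to 701 to 1680, 1370 to 2440 and 2090 to 5680 CPM. The 8 epithelial markers stayed under 180 CPM in every library (24.6 to 49.0, 32.0 to 50.5 and 53.9 to 177), the 8 endothelial markers between 28.0 and 73.9 CPM, and the 7 chondrocyte markers found in the files between 5.53 and 20.1 CPM. The part of these differences in the collagen results was not tested. In bulk libraries, fewer cells of a type and less RNA per cell cannot be told apart.

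The 44 chains differed widely in level. Per kb of spliced transcript, Col1a1 led in Sp3+/+ with a mean of 1300 CPM per kb, followed by Col1a2 with 1130, Col5a2 with 861, Col4a1 with 616, Col4a2 with 401 and Col3a1 with 379. Col1a1 and Col1a2 encode the chains of type I collagen, Col3a1 that of type III, and Col4a1 and Col4a2 the common chains of basement membranes. Col12a1 (185) and Col5a1 (170) came next, then Col8a1 (117) and Col11a1 (89.7), and the other 34 chains were below 71 CPM per kb. At the lower end, 8 chains stayed at or below 1 CPM in every library and did not enter the tests. These were Col6a4, Col6a5 and Col6a6 (beaded filament), Col9a1 (FACIT), Col13a1, Col17a1 and Col25a1 (transmembrane) and Col26a1 (other), none with more than 37 reads in any library. Tests covered the remaining 36, with 11 fibrillar, 8 basement membrane, 8 FACIT, 3 network and 3 beaded filament chains, the transmembrane chain Col23a1, and Col7a1 and Col28a1. Col21a1, a further FACIT chain, is not among the symbols analysed here.

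**Figure D1:**
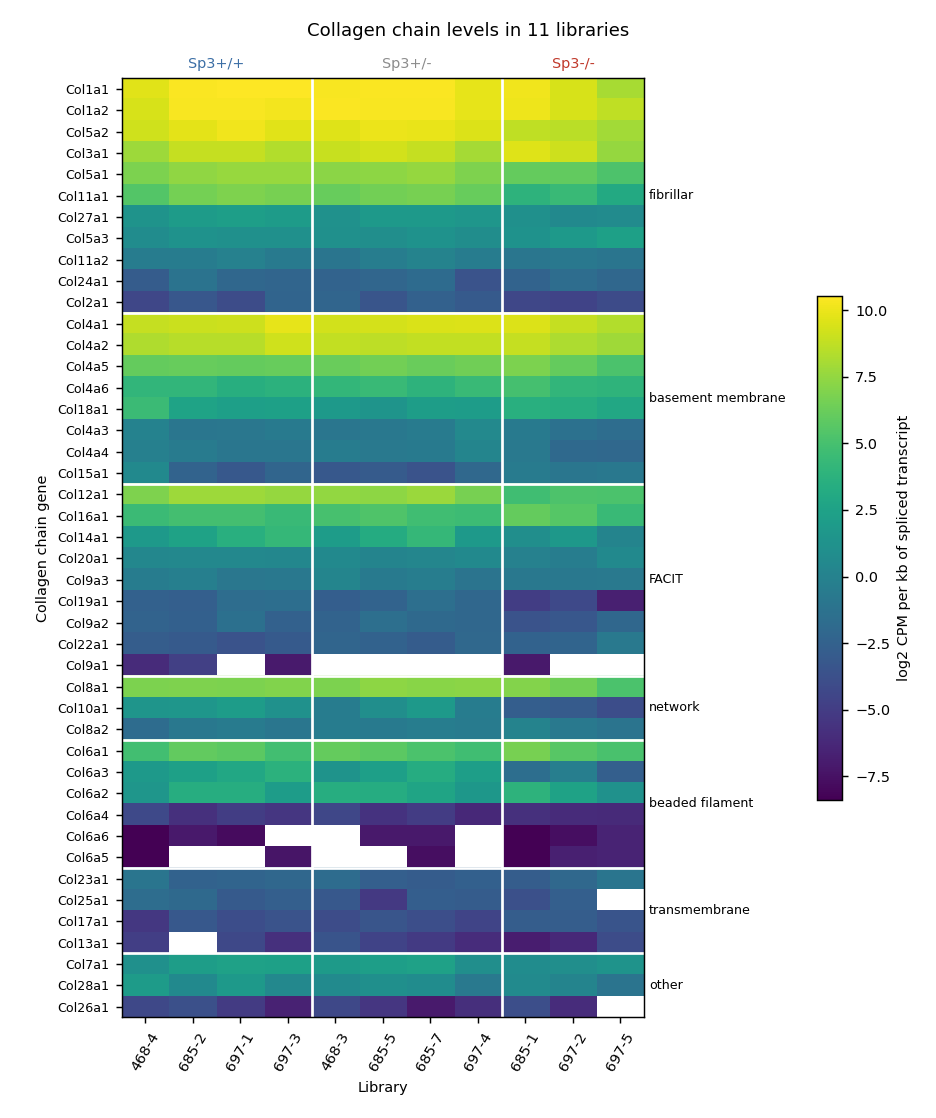
Level of each of the 44 collagen chains in each of the 11 libraries, as log2 CPM per kb of spliced transcript (colour scale), with genes ordered by class and by mean level in Sp3+/+ and libraries ordered by genotype. White cells had no reads; the brightest rows are Col1a1, Col1a2, Col5a2, Col4a1, Col4a2 and Col3a1, and Col10a1, Col19a1 and Col6a3 darken in the Sp3-/- columns.

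Collagen chains took 3.53% ± 0.764 (SD, n = 4) of the reads on genes in Sp3+/+, 3.65% ± 0.465 (n = 4) in Sp3+/- and 2.21% ± 1.01 (n = 3) in Sp3-/-. By library, the share was 2.4% in 468-4 against 3.82%, 4.04% and 3.87% in the other Sp3+/+ libraries, 2.98% in 697-4 against 3.70%, 3.95% and 3.98% in the other Sp3+/- libraries, and 3.25%, 2.15% and 1.22% in Sp3-/- 685-1, 697-2 and 697-5. The libraries 468-4 and 697-4 thus lay below the rest of their genotypes and within the Sp3-/- range. Sp3-/- differed from Sp3+/+ by -1.33 percentage points (exact two-sided permutation test, p = 0.114, adjusted over 3 comparisons 0.171), where 0.0571 is the smallest p that 4 against 3 libraries allow. The difference of Sp3-/- from Sp3+/- was -1.44 points (exact p = 0.114, adjusted 0.171) and that of Sp3+/- from Sp3+/+ was 0.12 points (exact p = 0.8). The differences of Sp3-/- from both other genotypes were larger than each SD but did not pass the test, with ranges that overlapped, and that between Sp3+/- and Sp3+/+ was smaller than each SD.

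Within the collagen reads, fibrillar chains took most in every library (58.2% to 73.8%), and basement membrane chains came second. Basement membrane chains made up 16.7% to 26.2% of collagen reads in Sp3+/+, 19.6% to 29.0% in Sp3+/- and 26.5% to 34.0% in Sp3-/-, so that Sp3-/- lay narrowly above every Sp3+/+ library but overlapped Sp3+/-. As a share of all reads on genes they were not higher, at 0.598% to 1.02% in Sp3+/+, 0.772% to 0.865% in Sp3+/- and 0.416% to 0.935% in Sp3-/-. FACIT chains made up 6.36% to 7.40% in Sp3+/+, 4.48% to 6.77% in Sp3+/- and 2.23% to 4.73% in Sp3-/-. These shares were not tested.

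**Figure D2:**
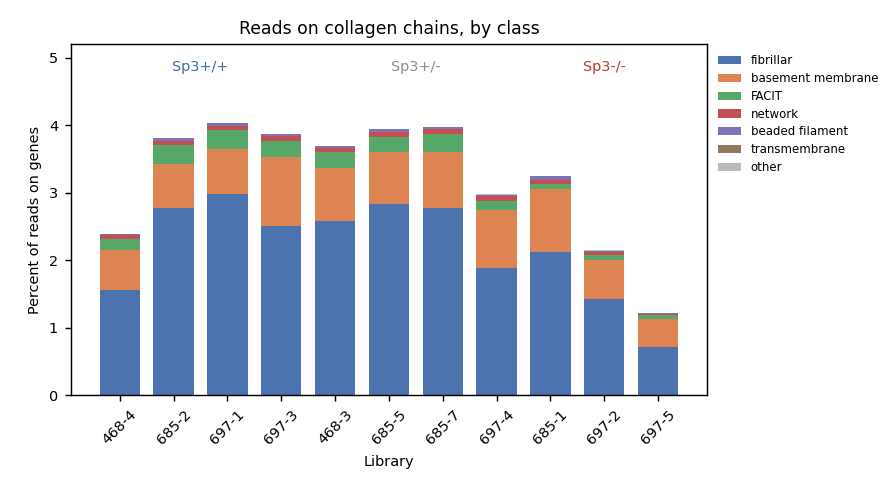
Percent of the reads on genes that fell on collagen chains in each library, stacked by class, with libraries ordered by genotype. The total ran from 1.22% in Sp3-/- 697-5 to 4.04% in Sp3+/+ 697-1, and fibrillar and basement membrane chains filled most of every bar.

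Because Sp proteins are known to bind GC boxes, the promoter windows of the chains were read from RefSeq (GRCm38.p6, the build of the alignments), from 250 bases before to 50 after a transcript start. Of the 44 chains, 35 had a window, and 22 of these (62.9%) held the GC box core GGGCGG on either strand. Counted by window, it was in 23 of 38 collagen windows (60.5%) and in 35.7% of all 32851 windows of that length. A match is a description of letters and not a bound site. Among the 8 chains that were lower in Sp3-/- than in Sp3+/+ (below), 6 had a window and 3 of these held the core (Col5a1, Col11a1 and Col27a1), and of the 28 tested chains that were not called, 22 had a window and 15 held it. The full GC box GGGGCGGGG, which contains the core, was in the windows of Col4a6, Col5a3, Col8a2 and Col9a2 (11.4% of all windows). The GT box GGTGTGGGG was in no collagen window (0.791% of all windows). A TATAAA motif was in those of Col3a1, Col10a1, Col11a2, Col13a1 and Col17a1 (13.6% of all windows). Col4a1 and Col4a2 start head to head, so their windows overlap by 78 bases and share letters. The 5 windows below are shown 5′ to 3′ along the gene, with the core in capitals (in Col10a1, the capitals mark TATAAA). They hold a pair of lower fibrillar chains with the core, the fibrillar chain that differed in the opposite direction, and the chains with the largest decreases, Col6a3 and Col10a1, whose windows do not hold it.
Col5a1, chr2:27886175-27886474, plus strand: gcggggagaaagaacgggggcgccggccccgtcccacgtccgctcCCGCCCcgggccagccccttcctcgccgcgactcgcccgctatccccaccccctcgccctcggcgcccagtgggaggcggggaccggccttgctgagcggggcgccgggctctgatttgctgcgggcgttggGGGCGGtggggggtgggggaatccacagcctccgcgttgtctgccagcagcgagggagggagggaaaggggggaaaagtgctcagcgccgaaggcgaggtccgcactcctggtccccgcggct
Col11a1, chr3:114030290-114030589, plus strand: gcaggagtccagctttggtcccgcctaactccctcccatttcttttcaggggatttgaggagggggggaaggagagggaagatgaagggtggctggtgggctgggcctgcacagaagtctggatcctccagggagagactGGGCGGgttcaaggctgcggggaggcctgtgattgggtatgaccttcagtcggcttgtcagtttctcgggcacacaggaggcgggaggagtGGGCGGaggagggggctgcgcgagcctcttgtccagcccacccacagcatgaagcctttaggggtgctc
Col5a3, chr9:20815018-20815317, minus strand: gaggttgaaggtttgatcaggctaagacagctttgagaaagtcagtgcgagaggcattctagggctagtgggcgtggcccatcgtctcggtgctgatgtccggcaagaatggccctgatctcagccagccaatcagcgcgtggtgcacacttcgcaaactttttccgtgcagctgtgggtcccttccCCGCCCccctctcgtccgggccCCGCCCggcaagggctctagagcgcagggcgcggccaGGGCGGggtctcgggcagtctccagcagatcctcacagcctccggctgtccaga
Col6a3, chr1:90843922-90844221, minus strand: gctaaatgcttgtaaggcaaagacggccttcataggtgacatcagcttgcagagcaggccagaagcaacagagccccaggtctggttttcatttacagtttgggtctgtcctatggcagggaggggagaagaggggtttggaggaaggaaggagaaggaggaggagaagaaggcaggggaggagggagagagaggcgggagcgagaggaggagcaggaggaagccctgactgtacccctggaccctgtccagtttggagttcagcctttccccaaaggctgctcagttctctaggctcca
Col10a1, chr10:34389731-34390030, plus strand: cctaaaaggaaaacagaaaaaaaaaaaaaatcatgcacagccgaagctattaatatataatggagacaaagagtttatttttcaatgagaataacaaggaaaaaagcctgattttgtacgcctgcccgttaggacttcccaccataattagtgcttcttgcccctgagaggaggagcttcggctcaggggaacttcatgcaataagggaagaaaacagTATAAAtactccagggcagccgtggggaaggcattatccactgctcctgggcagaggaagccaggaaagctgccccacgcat
In Col5a1 the core nearest to the start began 73 bases before it (position -73, with the start as 0), in Col11a1 at -19 and in Col5a3 at -4. GC content was 75% in the Col5a1 window, 62.3% in Col11a1, 63.3% in Col5a3, 56.3% in Col6a3 and 44.3% in Col10a1, beside a median of 52.7% over all windows.

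The main comparison set Sp3-/- against Sp3+/+ and asked which chains differ when both Sp3 alleles are absent. Of the 36 chains tested, 8 were lower in Sp3-/- and 0 were higher at an adjusted p below 0.05 (edgeR quasi-likelihood test, Benjamini-Hochberg over 14025 genes). The lower chains make up 22.2% of those tested. Col10a1 and Col19a1, which are among them, were below 1 CPM in every Sp3-/- library. They therefore entered the test only through Sp3+/+ libraries, under a filter that was the same for all genes. Of all genes tested, 9.77% were lower and 8.76% were higher. Over all genes these were 1370 lower and 1229 higher, or 1671 and 983 with upper quartile factors, which called 9 chains lower. At an unadjusted p below 0.05 there were 14 of 36 chains and 5278 of 14025 genes. DESeq2 called 11 chains lower and 2 higher, and 2125 genes lower and 2172 higher. The median log2 fold change over the 36 chains was -0.51, with 24 below 0 and 12 above, beside a median of 0 over all genes, of which 18.5% were called in either direction. Libraries of the 2 genotypes did not overlap for 10 chains that were lower (16.7% of all genes) and for 2 that were higher (14.9%). By class, 4 of 11 fibrillar, 2 of 8 FACIT, 1 of 3 network and 1 of 3 beaded filament chains were lower, and 0 of 8 basement membrane chains, 0 of 1 transmembrane and 0 of 2 other chains.

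**Figure D3:**
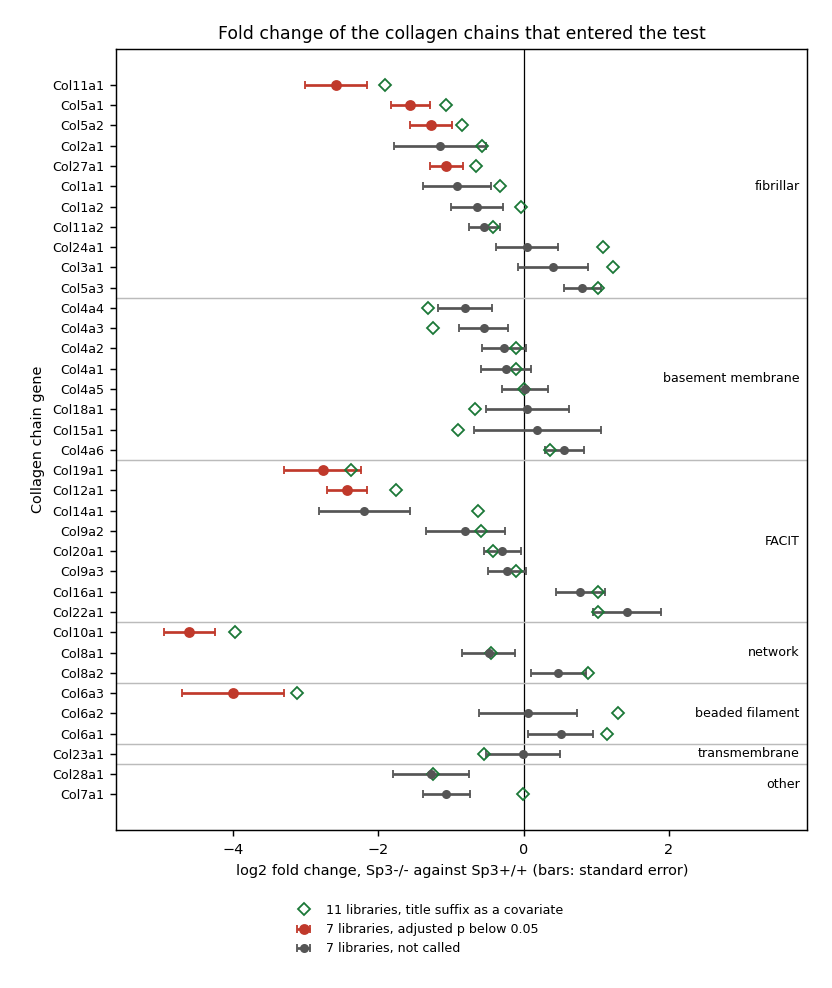
Log2 fold change of Sp3-/- against Sp3+/+ for the 36 collagen chains tested, by class, with filled points and standard errors from the 7 libraries of these genotypes (red where the adjusted p is below 0.05) and open diamonds from all 11 libraries with the title suffix as a covariate. The red points run from -4.60 for Col10a1 to -1.06 for Col27a1; the diamonds lie nearer to 0 than the red points for all 8, and that of Col14a1 moves from -2.19 to -0.62.

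Type V and XI collagens are quantitatively minor fibrillar collagens that start fibrils and limit their diameter, and their chains held 3 of the 4 lower fibrillar members. In the order in which the libraries are listed above, Col5a1 (2:27886381-28039510 in GRCm38.p6) lay at 9.93, 10.48, 10.72 and 10.70 log2 CPM in Sp3+/+, at 10.37, 10.44, 10.61 and 9.99 in Sp3+/- and at 9.16, 9.10 and 8.37 in Sp3-/-. Every Sp3-/- library was below every other library. The log2 fold change against Sp3+/+ was -1.56 (SE 0.27, edgeR adjusted p = 0.0153). Col5a2 (1:45374331-45503282), the partner chain, lay at 12.13, 12.69, 13.06 and 12.64 in Sp3+/+, at 12.52, 12.88, 12.82 and 12.46 in Sp3+/- and at 11.69, 11.52 and 10.83 in Sp3-/-. Again no Sp3-/- library reached the lowest of the others, and the change was -1.27 (SE 0.29, edgeR adjusted p = 0.0283). Col11a1 (3:114030479-114220756), a chain of cartilage fibrils that is also made in other tissues, lay at 8.46, 9.51, 9.85 and 9.59 in Sp3+/+, at 9.12, 9.44, 9.59 and 9.08 in Sp3+/- and at 6.77, 7.39 and 6.09 in Sp3-/-. The gap between the groups was over 1 log2 unit, and the change was -2.58 (SE 0.43, edgeR adjusted p = 0.0137).

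Col27a1 (4:63214009-63334991), a fibrillar chain known mostly from cartilage, lay at 4.24, 4.92, 5.13 and 4.92 log2 CPM in Sp3+/+, at 4.16, 4.77, 4.76 and 4.52 in Sp3+/- and at 4.04, 3.56 and 3.67 in Sp3-/-. Its groups were close, with 468-4 and 468-3 just above 685-1, and it fell by 1.06 on the log2 scale (SE 0.23, edgeR adjusted p = 0.0248). The call of Col5a1 was lost without Sp3-/- 697-2 (-1.67, edgeR adjusted p = 0.056). Those of Col5a2 and Col27a1 were lost without any of 685-2, 697-1, 697-2, 697-3 and 697-5, at -1.05 to -1.34 for Col5a2 (edgeR adjusted p = 0.0594 to 0.092) and -0.94 to -1.04 for Col27a1 (edgeR adjusted p = 0.0634 to 0.0983).

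The remaining fibrillar chains did not pass the test. Col1a1 (11:94936224-94953042) lay at 12.24, 13.04, 13.10 and 13.12 log2 CPM in Sp3+/+, at 12.90, 12.99, 13.04 and 12.41 in Sp3+/- and at 12.68, 11.99 and 10.62 in Sp3-/-, a range of over 2 log2 units among the Sp3-/- libraries. Col1a2 (6:4505618-4541543) lay at 11.83, 12.79, 12.82 and 12.63 in Sp3+/+, at 12.86, 12.79, 12.80 and 12.25 in Sp3+/- and at 12.49, 11.83 and 11.18 in Sp3-/-. For both genes the Sp3+/+ library 468-4 was below Sp3-/- 685-1, and the changes were -0.92 (SE 0.47, edgeR adjusted p = 0.193) and -0.64 (SE 0.36, edgeR adjusted p = 0.238). Col3a1 (1:45311538-45349706) is the neighbour of Col5a2 on chromosome 1, and its log2 fold change was 0.41 (SE 0.48, edgeR adjusted p = 0.565). The cartilage chain Col2a1 (-1.15), Col11a2 (-0.54) and Col24a1 (0.05) had adjusted p-values between 0.104 and 0.95, and for Col11a2 the 2 genotypes did not overlap.

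Col5a3 (9:20770050-20815117), the remaining type V chain, went the other way. It lay at 3.48, 3.94, 3.72 and 3.78 log2 CPM in Sp3+/+, at 3.72, 3.58, 3.88 and 3.51 in Sp3+/- and at 3.94, 4.49 and 5.01 in Sp3-/-. The lowest Sp3-/- library lay above the highest Sp3+/+ library by less than the second decimal, and the change of 0.81 (SE 0.25) missed the threshold (edgeR adjusted p = 0.0591). Without 685-1 it was 1.03 and passed (edgeR adjusted p = 0.0245).

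**Figure D4:**
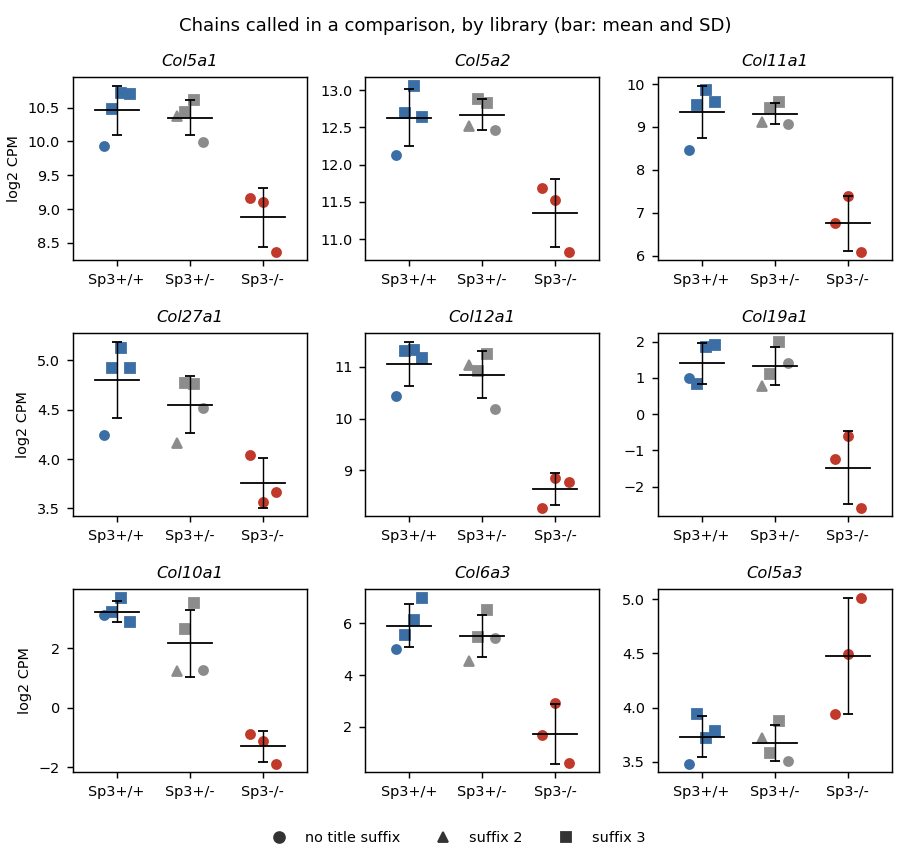
Log2 CPM of the 9 collagen chains called in at least 1 comparison, for each library by genotype, with the mean and SD in black and the marker shape giving the title suffix. For 8 chains the 3 Sp3-/- points lie below all other points; for Col5a3 they lie at or above them.

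FACIT chains held the next group. Col12a1 (9:79598987-79721141), which decorates type I fibrils in tissues under tension, lay at 10.43, 11.31, 11.33 and 11.16 log2 CPM in Sp3+/+, at 11.04, 10.91, 11.24 and 10.19 in Sp3+/- and at 8.28, 8.85 and 8.78 in Sp3-/-. The Sp3-/- libraries were all at least 1 log2 unit below the others, and the change was -2.43 (SE 0.28, edgeR adjusted p = 0.00744). Col19a1 (1:24257683-24587922), a rare chain, lay at 1.00, 0.84, 1.86 and 1.91 in Sp3+/+, at 0.78, 1.12, 2.00 and 1.41 in Sp3+/- and at -1.23, -0.60 and -2.58 in Sp3-/-, where it rested on 1 to 27 reads a library. It fell by 2.76 on the log2 scale (SE 0.53, edgeR adjusted p = 0.0185), and the call was lost without 697-1 (-2.61), 697-2 (-3.31) or 697-3 (-2.58), with edgeR adjusted p = 0.0529 to 0.0547. Col14a1, the FACIT most like Col12a1 in structure, lay between 4.56 and 6.91 in Sp3+/+ and between 2.90 and 4.43 in Sp3-/-. Its groups did not overlap, and the change of -2.19 (SE 0.63) just missed the threshold (edgeR adjusted p = 0.0509). Without 468-4 it was -2.46 and passed (edgeR adjusted p = 0.0162). Col22a1, known from junctions of muscle and tendon, was 1.42 (SE 0.47, edgeR adjusted p = 0.0698), again with no overlap. Col16a1 (0.78, and 1.11 with edgeR adjusted p = 0.0253 without 697-5), Col20a1 (-0.29) and the cartilage chains Col9a2 (-0.80) and Col9a3 (-0.23) did not pass.

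Col10a1 (10:34389981-34397085), a network collagen chain made by hypertrophic chondrocytes, had the largest change of the 36. It lay at 3.12, 3.23, 3.71 and 2.88 log2 CPM in Sp3+/+, at 1.24, 2.64, 3.54 and 1.26 in Sp3+/- and at -0.89, -1.11 and -1.89 in Sp3-/-. In Sp3+/+ it had 135 to 321 reads a library, and in Sp3-/- 2 to 18. It fell by 4.60 on the log2 scale (SE 0.35, edgeR adjusted p = 0.00611), but it had entered the test only through Sp3+/+ libraries. The chondrocyte markers beside it summed to 8.79 to 20.1 CPM in Sp3+/+, with up to 2 of 7 at 0, and to 5.53 to 10.9 CPM in Sp3-/-. The 3 that entered the test were Acan (-4.48, edgeR adjusted p = 0.084), Matn3 (-3.61, 0.0663) and Sox9 (-0.41, 0.375), none of them called, and Matn3 was lower against Sp3+/- (-3.34, edgeR adjusted p = 0.0439). With the suffix covariate, Acan was at 0.52 and Matn3 at -0.49 against Sp3+/+ (edgeR adjusted p = 0.888 and 0.743), and their part in the Col10a1 result was not tested. The other network chains, Col8a1 (-0.48) and Col8a2 (0.48), which form hexagonal lattices around vessels and in the eye, had adjusted p-values of 0.371 and 0.389.

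Type VI collagen is assembled from the products of Col6a1, Col6a2 and a longer partner chain, most often that of Col6a3. Col6a3 (1:90766860-90844001) lay at 5.01, 5.55, 6.12 and 7.00 log2 CPM in Sp3+/+, at 4.56, 5.46, 6.54 and 5.44 in Sp3+/- and at 1.69, 2.91 and 0.58 in Sp3-/-. The highest Sp3-/- library was more than 1 log2 unit below the lowest of the others. Its change was -4.0 (SE 0.70, edgeR adjusted p = 0.0153). Col6a1 (0.51, SE 0.45) and Col6a2 (0.06, SE 0.67) had edgeR adjusted p-values of 0.441 and 0.961, and their groups overlapped. Col6a4, Col6a5 and Col6a6, which encode chains related to that of Col6a3, had at most 14, 4 and 4 reads in any library, so a difference in them was not detectable at this depth.

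Basement membrane chains held no member that passed the test. Col4a1 (8:11198423-11312889) lay at 11.62, 11.73, 11.85 and 12.57 log2 CPM in Sp3+/+, at 12.00, 12.03, 12.19 and 12.24 in Sp3+/- and at 12.28, 11.60 and 11.12 in Sp3-/-, and Col4a2 (8:11312805-11449287) at 11.02, 11.24, 11.28 and 11.91, at 11.53, 11.44, 11.57 and 11.60 and at 11.61, 10.98 and 10.61. The groups overlapped for both, and the changes were -0.24 (SE 0.34) and -0.27 (SE 0.30). These 2 genes overlap by 85 bases and Col4a3 and Col4a4 by 114, and since the strand setting of the counting is not given in the sources used here, reads in these stretches cannot be assigned. Col4a3 (-0.55) and Col4a4 (-0.80), chains of specialised membranes in kidney and lung, and the X-linked Col4a5 (0.02) and Col4a6 (0.56) were not called. Col4a4 was called without 685-1 (-1.34, edgeR adjusted p = 0.0376). Col15a1 (0.19) and Col18a1 (0.05), proteoglycan collagens of the membrane zone, depended on 468-4, where they lay at 3.16 and 7.02 log2 CPM against -0.48 to 0.42 and 4.82 to 5.12 in the other Sp3+/+ libraries. Without it both were higher in Sp3-/-, by 1.76 (edgeR adjusted p = 0.00994) and 0.91 (edgeR adjusted p = 0.0104). With the suffix covariate and all libraries they went the other way, at -0.90 and -0.67, and did not pass (edgeR adjusted p = 0.227 and 0.312). The 8 endothelial markers summed to 73.9 CPM in 468-4, 28.0 to 69.3 CPM in the other Sp3+/+ libraries and 41.0 to 47.4 CPM in Sp3-/-. Pecam1 lay at 2.96 log2 CPM in 468-4, -2.42 to -1.55 in the other Sp3+/+ libraries and 0.25 to 2.02 in Sp3-/-. Cdh5 lay at 3.17, -2.23 to -1.06 and -0.56 to 2.14 in the same order. Tie1 (1.44) and Emcn (4.74) were also highest in 468-4. Kdr, Tek and Erg in 468-4 lay within the range of the other Sp3+/+ libraries, and Cldn5 had no reads in it. The part of these markers in the Col15a1 and Col18a1 values was not tested. Of the last chains, Col23a1 was at -0.01, Col28a1 at -1.27 and Col7a1, the chain of anchoring fibrils under epithelia, at -1.06 (edgeR adjusted p = 0.0605), the last passing without 468-4 (-1.29, edgeR adjusted p = 0.00469).

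Across the 7 fits that each left out 1 library, Col10a1, Col11a1, Col12a1 and Col6a3 were called in all 7, with edgeR adjusted p-values up to 0.0375, 0.0446, 0.0396 and 0.0455. The count of lower chains was 4 without 697-2, 5 without 697-1 or 697-3 and 6 without 685-2 or 697-5. Over all genes the lower calls also fell, from 1370 to 171 without 697-2, 501 without 697-1 and 530 without 697-3. They were 582 without 685-2 and 759 without 697-5. With the title suffix as a covariate and all 11 libraries, 7 chains were lower in Sp3-/- (5.8% of all genes) and 0 were higher (3.6%, and 9.41% in either direction). Of the 8 lower chains above, 6 kept the call, from -3.97 for Col10a1 to -1.07 for Col5a1, while Col5a2 (-0.84, edgeR adjusted p = 0.0873) and Col27a1 (-0.65, edgeR adjusted p = 0.0644) did not, and Col4a3 was added (-1.25, edgeR adjusted p = 0.0329). The changes of Col14a1 (-0.62) and Col7a1 (-0.01) were nearer to 0 in this fit. With 697-4 given the suffix 2 that its file name carries, 2 chains were lower, Col10a1 (-4.45, edgeR adjusted p = 0.0111) and Col12a1 (-1.77, edgeR adjusted p = 0.0378). Over all 14130 genes, that fit called 141 lower and 22 higher.

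Ratios between chains of 1 molecule were then taken within each library, which needs no scaling between libraries. For Col6a1 to Col6a3, log2 of the read ratio was 1.46 ± 1.10 (SD, n = 4) in Sp3+/+, 2.00 ± 1.20 (n = 4) in Sp3+/- and 6.14 ± 1.20 (n = 3) in Sp3-/-. The lowest Sp3-/- library (4.75) lay above the highest Sp3+/+ library (2.47) and the highest Sp3+/- library (3.57). The difference from Sp3+/+ was 4.68 (exact two-sided permutation test, p = 0.0571, the smallest that 4 against 3 libraries allow, adjusted over 6 ratios 0.0857), so this design could not reach 0.05. The ratios Col1a1 to Col1a2 (difference -0.42), Col5a1 to Col5a2 (-0.30) and Col8a1 to Col8a2 (-1.08) also had no overlap between the 2 genotypes, with the same exact p of 0.0571 each (adjusted 0.0857). Among levels of single genes, 16.7% were lower and 14.9% higher in Sp3-/- without overlap, and no such share was taken for ratios. Col8a2 had 37 to 76 reads a library in Sp3+/+ and 20 to 169 in Sp3-/-. For Col1a1 to Col1a2 the Sp3-/- mean of -0.07 rested on 697-5 at -0.56, with 685-1 and 697-2 at 0.20 and 0.16 just under the Sp3+/+ minimum of 0.25. The ratio Col4a1 to Col4a2, chains of 1 trimer with a shared promoter region, was 0.58 ± 0.07 in Sp3+/+, 0.58 ± 0.08 in Sp3+/- and 0.60 ± 0.08 in Sp3-/-. Its difference of 0.02 was smaller than the spread between libraries (exact p = 0.686). Col6a1 to Col6a2 differed by 0.57 with overlapping libraries (exact p = 0.171, adjusted 0.205).

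**Figure D5:**
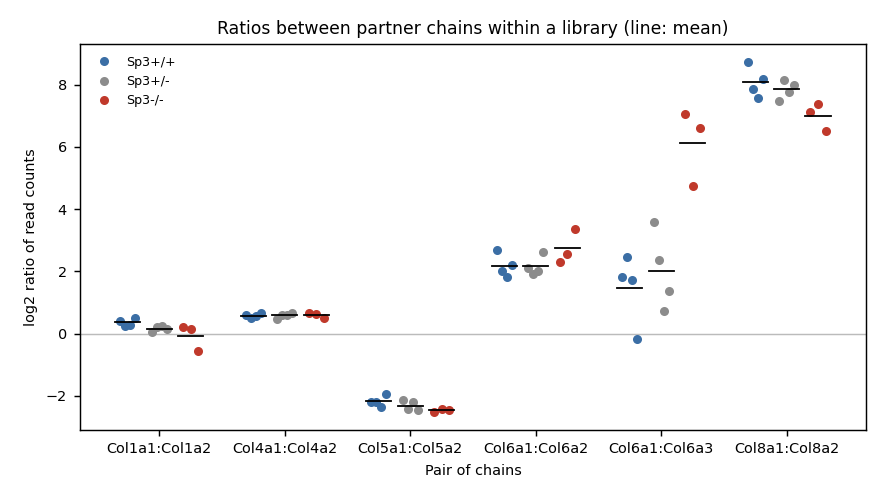
Log2 ratio of read counts between chains of 1 collagen type for 6 pairs, with each point a library, colour the genotype and a line at the mean. The Sp3-/- points for Col6a1 to Col6a3 lie between 4.75 and 7.05, above all others, and the Col4a1 to Col4a2 points of all genotypes lie between 0.47 and 0.67.

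Sp3-/- was also set against Sp3+/-, where cells of both groups carry at least 1 targeted allele. This comparison uses the same Sp3-/- libraries as the one above and is therefore not independent of it. Here too, Col10a1 and Col19a1 entered the test only through Sp3+/+ and Sp3+/- libraries. Of 36 chains tested, 8 were lower (12.5% of all genes tested) and 1 was higher (13%, and 25.5% in either direction), and the median was -0.51 beside 0 over all genes. Over all genes the split was 1769 lower and 1838 higher, or 2171 and 1436 with upper quartile factors. Libraries did not overlap for 11 chains that were lower (18% of all genes) and 3 that were higher (16.2%). The lower chains were those called against Sp3+/+, at -3.85 (SE 0.64) for Col10a1, -3.56 (SE 0.68) for Col6a3, -2.67 (SE 0.50) for Col19a1, -2.48 (SE 0.37) for Col11a1, -2.24 (SE 0.30) for Col12a1, -1.45 (SE 0.25) for Col5a1, -1.29 (SE 0.26) for Col5a2 and -0.80 (SE 0.22) for Col27a1, with edgeR adjusted p-values from 0.00188 to 0.0275. Col5a3 was higher by 0.86 (SE 0.22, edgeR adjusted p = 0.0186). Apart from Col27a1 and Col5a3, each held in all 11 fits that left out 1 library. Col27a1 was lost without 685-5 (-0.73), 685-7 (-0.73), 697-2 (-0.70) or 697-5 (-0.76), with edgeR adjusted p = 0.0692 to 0.105. Col5a3 was lost without 685-5 (0.83), 697-2 (0.89) or 697-5 (0.57), with edgeR adjusted p = 0.0509 to 0.0586.

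Several chains lay near the threshold in this comparison. Col18a1, whose fragment endostatin acts on vessels, lay at 4.31, 3.91, 4.66 and 4.55 log2 CPM in Sp3+/- and at 6.04, 5.92 and 5.47 in Sp3-/-, a difference of 1.45 with no overlap (edgeR adjusted p = 0.0561). Col15a1 was 2.08 (edgeR adjusted p = 0.0837), Col2a1 -1.65 (0.0549), Col14a1 -2.06 (0.0585) and Col4a4 -1.06 (0.0568), each again with no overlap. With 468-4 left out of the fit, Col18a1 (1.45), Col15a1 (2.07), Col2a1 (-1.65), Col14a1 (-2.06), Col4a4 (-1.06) and Col7a1 (-0.96) passed, with edgeR adjusted p = 0.00138 to 0.0441, and the counts became 12 lower and 3 higher (2111 and 2134 of 14087 genes). Without 685-1 there were 14 lower and 1 higher (1613 and 1846 of 14086 genes), the lower ones including Col1a1 (-1.39) and Col1a2 (-1.15), with edgeR adjusted p = 0.0331 and 0.0291. With the title suffix as a covariate, 7 chains were lower (3.57% of all genes) and 0 higher (1.83%, and 5.4% in either direction), and Col5a3 was at 1.07 (edgeR adjusted p = 0.0724). Col5a2 (-0.97, edgeR adjusted p = 0.0726) and Col27a1 (-0.57, 0.102) lost the call and Col4a3 gained it (-1.55, 0.0229). Col18a1 (0.44), Col15a1 (0.41) and Col14a1 (-0.78) were nearer to 0 in this fit (edgeR adjusted p = 0.606, 0.672 and 0.427). With 697-4 given the suffix 2, no chain and no gene was called in edgeR, where 7 chains and 1168 genes had an unadjusted p below 0.05. In that fit no Sp3+/- library shares a suffix with a Sp3-/- library. Suffix and genotype are then told apart only through Sp3+/+ 468-4, so the absence of calls cannot show that the differences are absent.

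Sp3+/- was set against Sp3+/+ to ask whether 1 missing allele goes with a difference. No chain of 36 was called, and no gene of 14130 (0% of all genes; 246 genes and 2 chains had an unadjusted p below 0.05 in edgeR, 281 and 1 in DESeq2 and 306 and 1 in limma-voom, all with 0 called). The median over the chains was 0.03, beside -0.02 over all genes, and values ran from -1.89 for Col15a1 (SE 0.77) to 0.68 for Col22a1 (SE 0.39). For the 8 chains that were lower in Sp3-/-, the Sp3+/- differences from Sp3+/+ were -0.75 (SE 0.47) for Col10a1, -0.44 (SE 0.54) for Col6a3, -0.08 (SE 0.40) for Col19a1, -0.11 (SE 0.31) for Col11a1, -0.20 (SE 0.25) for Col12a1, -0.12 (SE 0.22) for Col5a1, 0.01 (SE 0.23) for Col5a2 and -0.26 (SE 0.20) for Col27a1, all with an adjusted p of 1. The genotypes did not overlap for 2 chains, Col18a1 (-1.41, lower, as for 0.814% of all genes) and Col4a5 (0.22, higher, as for 0.594%). In Col10a1 the Sp3+/- libraries spread from 1.24 in 468-3 and 1.26 in 697-4 to 3.54 in 685-7, over 2 log2 units.

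Genes that act on collagen chains were read in 4 lists. Beside them stand the same shares over all genes as above, 9.77% lower and 8.76% higher in Sp3-/- than in Sp3+/+, and 5.8% and 3.6% with the suffix covariate. In procollagen modification and folding, 9 of 17 tested genes were lower in Sp3-/- than in Sp3+/+ and 1 was higher, with a median of -0.58. P4ha2 and P4ha3 encode catalytic subunits of prolyl 4-hydroxylase, which stabilises the triple helix. P4ha2 lay between 6.53 and 6.95 log2 CPM in Sp3+/+ and between 5.21 and 5.49 in Sp3-/- (-1.42, edgeR adjusted p = 0.00611), and P4ha3 between 4.99 and 5.45 and between 2.97 and 4.30 (-1.47, 0.0239). Leprel2, a prolyl 3-hydroxylase, was at -1.04 (edgeR adjusted p = 0.0153), and the reticulum cation channel Tmem38b at 0.95 (0.0276). With the suffix covariate 6 of 18 were lower and 0 higher, without Leprel2 and Tmem38b.

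In procollagen export, processing and fibril assembly, 5 of 16 were lower and 2 higher, with a median of -0.26. Tll1, a tolloid-like protease that trims procollagen, lay between 7.41 and 8.03 log2 CPM in Sp3+/+ and between 5.08 and 5.92 in Sp3-/- (-2.37, edgeR adjusted p = 0.00727). Pcolce, which enhances that cleavage, lay between 7.42 and 8.98 and between 5.68 and 6.44 (-2.31, edgeR adjusted p = 0.017). The small leucine-rich proteoglycans Lum (2.30, edgeR adjusted p = 0.0343) and Dcn (1.32, 0.0266), which bind fibrils, were higher. With the suffix covariate, 3 were lower and 0 higher, and Lum (2.59, edgeR adjusted p = 0.0801) and Dcn (1.36, 0.059) did not pass although their changes were as large.

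Among receptors and uptake genes, 4 of 9 were lower and 0 higher, with a median of -0.62. These were Itga11 (-2.93, edgeR adjusted p = 0.0192) and Itga1 (-1.95, 0.0225), integrin subunits that bind collagen, the endocytic receptor Mrc2 (-1.91, 0.00851) and the receptor kinase Ddr2 (-0.67, 0.0215). Only Mrc2 of the 9 passed with the suffix covariate (-1.38, edgeR adjusted p = 0.0257). Among the 8 collagen-cleaving proteases, 3 were higher and 0 lower, with a median of 0.31. Mmp8, a collagenase best known from neutrophils, lay between 0.00 and 1.12 log2 CPM in Sp3+/+ and between 3.76 and 4.06 in Sp3-/- (3.38, edgeR adjusted p = 0.00611), and it passed with the suffix covariate (3.10, 0.00579). Mmp13, a second collagenase, was at 1.96 (edgeR adjusted p = 0.0301) and the dipeptidase Pepd, which releases proline, at 0.44 (0.0491), and neither passed with the covariate (0.09 and 0.187). Against Sp3+/- the counts were 9 lower and 1 higher of 18, 5 lower and 2 higher of 16, 5 lower and 1 higher of 9, and 3 higher of 8, beside 12.5% lower and 13% higher over all genes. No gene of the 4 lists was called between Sp3+/- and Sp3+/+.

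Markers of cell types were read in the same comparison of Sp3-/- with Sp3+/+, where 9.77% of all genes were lower and 8.76% higher. These shares were 12.5% and 13% against Sp3+/-, and 5.8% and 3.6% against Sp3+/+ with the suffix covariate. Of the mesenchyme markers tested, 3 of 8 were lower (Pdgfrb, Vim and Foxf1). The only mesenchyme marker above 0 was Tcf21 (0.83, edgeR adjusted p = 0.364). Of the macrophage markers 5 of 8, of the mesothelial markers 3 of 6 and of the epithelial markers 3 of 7 were higher. Of the endothelial markers 1 of 7 (Erg) was lower. Against Sp3+/-, 5 of 9 mesenchyme markers were lower, and 7 of 8 macrophage, 4 of 7 epithelial and 2 of 6 mesothelial markers were higher, with 1 of 3 chondrocyte and 1 of 7 endothelial markers lower. With the suffix covariate, 2 of 9 mesenchyme markers were lower (Pdgfrb and Vim) and 1 was higher (Tcf21, 2.51, edgeR adjusted p = 0.0484). The other counts in that fit were 0 of 8 macrophage, 1 higher of 6 mesothelial, 1 higher of 7 epithelial and 0 of 7 endothelial markers. Single markers of a list differed in level. The epithelial genes Nkx2-1 and Sftpc were at 0 in 3 libraries each, while Krt18 lay between 3.63 and 6.69 log2 CPM. The endothelial gene Cldn5 was at 0 in 9 of 11 libraries, while Kdr lay between 4.13 and 6.02 log2 CPM. Pecam1 ran from -2.42 in 697-1 to 2.96 in 468-4, and Cdh5 from -3.94 in 468-3 to 3.17 in 468-4.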

How the data were processed

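RNA was measured in 11 libraries of fetal lung mesenchymal cells as 50 bp single-end reads. The authors checked reads with FastQC 0.10.1, aligned them to mm10 with STAR 2.4.5a and deposited raw counts per gene symbol from HTSeq, whose version, annotation and strand setting are not given in the sources used here. The 5 tallies outside genes (38.4% to 40.9% of each library) were left out of library sizes.

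Counts were fitted in R 4.3.3 with edgeR 4.0.16 (TMM, robust quasi-likelihood test, genes above 1 CPM in at least 1 library, Benjamini-Hochberg over all genes, adjusted p below 0.05). Sp3-/- against Sp3+/+ used the 7 libraries of these genotypes, and the other comparisons all 11. Log2 CPM used a prior count of 2 and factors from all 11 libraries, and SE is the fold change divided by the square root of its F value. CPM per kb used canonical spliced lengths of GENCODE. Single values were compared by exact permutation in Python 3.11.15 with scipy 1.17.1. Genotypes came from the labels. No 2 replicates agreed within sampling noise (lowest chi-square per degree of freedom 15.8).

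Every member is named. All libraries' values are given for members called in any comparison and for the 5 with the highest level per kb in Sp3+/+. Of each other list, up to 4 called genes with the largest change are named, and markers and genes beyond this were chosen after their values were seen. The members and lists were chosen with earlier results of these data known.

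On simulated data for Sp3-/- against Sp3+/+ (14025 genes, 200 changed), the fit recovered 92% of genes changed 4-fold and 50% of those changed 2-fold, with 5 false calls. Simulated libraries were independent, with the spread typical of genes at each level and no suffix effect. These rates therefore need not hold for the real libraries. Alternatives were DESeq2 1.42.0, limma 3.58.1 (voom), other normalizations and filters, the title suffix as a covariate, a block on the first number of the title, and each library left out. Promoter windows and coordinates were those of RefSeq on GRCm38.p6, the same assembly as mm10.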

Additional observations from a re-analysis of the deposited data

Results flagged for a closer look

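In 4 of the 86 groups of 4 libraries examined, 1 library lay far from the other 3, and chance alone gives about 1 in 20. The number flagged is close to that rate, and the groups share libraries, so they are not independent. Of the 4 flagged, 3 are values of Sp3+/+ 468-4. Its Col18a1 level was 7.02 log2 CPM, against 4.82 to 5.12 in the other Sp3+/+ libraries. Its Col1a1 level was 12.24 log2 CPM, against 13.04 to 13.12. Its share of gene reads on collagen chains was 2.4%, against 3.82% to 4.04%. The other is Sp3+/- 697-4, with Col1a2 at 12.25 log2 CPM against 12.79 to 12.86 in the remaining Sp3+/- libraries.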

How the results depend on the processing

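Of the counts, medians, shares and ratios recomputed under other settings, 215 values stayed within the limits set for a change, 29 moved and 3 changed sign. For single chains, 717 values stayed on the same side of the threshold with the same sign, 50 fell short of it and 23 newly passed it. Another 43 changed sign or lost it on rounding, all for chains not called between Sp3-/- and Sp3+/+. The cause of these moves was not tested, beyond the fewer libraries in some fits.

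For Sp3-/- against Sp3+/+ (8 lower, 0 higher), the count of higher chains was 2 with DESeq2 and 2 with all 11 libraries in 1 fit. The count of lower chains was 2 with 697-4 taken as suffix 2 and 0 with only the libraries without a suffix, where 1 Sp3+/+ library is assumed to vary like the others. Genes called over the whole table were 2599, against 4297 with DESeq2, 3977 with all 11 libraries, 1329 with the suffix covariate, 163 with 697-4 as suffix 2 and 0 without suffixed libraries. For Sp3-/- against Sp3+/- (8 lower, 1 higher), DESeq2 gave 14 lower and 2 higher (2200 and 2433 of 14130 genes). With limma-voom there were 9 lower and 2 higher (1741 and 1950 genes). The suffix covariate gave 7 lower and 0 higher, and 697-4 as suffix 2 gave 0 lower and 0 higher. Genes called were 3607, against 4633 with DESeq2, 3691 with limma-voom, 763 with the suffix covariate and 0 with 697-4 as suffix 2. Leaving out 468-4 and 697-4 together, chosen after seeing the data, gave 12 lower and 3 higher (2310 and 2185 of 14065 genes). The same exclusion called 0 chains between Sp3+/- and Sp3+/+. Leaving out 1 library gave 4 to 10 lower and 0 to 2 higher against Sp3+/+, and 7 to 14 lower and 0 to 3 higher against Sp3+/-. Over all genes, the same fits called 171 to 2108 lower and 111 to 2071 higher against Sp3+/+. Against Sp3+/- they called 804 to 2111 lower and 686 to 2134 higher. No chain was called between Sp3+/- and Sp3+/+ under any setting tried.

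For 14 pairs of libraries across genotypes with the same first number in the title, the median correlation of deviations was 0.1. It was -0.044 for pairs with different first numbers. Of the 14 pairs, 7 had a correlation over 0.1, with a range of -0.617 to 0.344. Pairs within 685 ran from 0.105 to 0.293, those within 697 from -0.617 to 0.344, and that within 468 was -0.409. These values do not settle whether this number pairs the libraries. With the first number as a block, 10 chains were lower and 3 higher against Sp3+/+ (4031 genes called, 2599 without the block). Against Sp3+/- 8 were lower and 2 higher (2956 genes called, 3607 without the block).

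The collagen share of Sp3-/- against Sp3+/- was -0.843 points as a share of all reads. Without 1 library it ranged from -1.97 to -0.953, that against Sp3+/+ from -1.85 to -0.833, and that of Sp3+/- against Sp3+/+ from -0.259 to 0.344. Without 1 library the difference in Col1a1 to Col1a2 ranged from -0.56 to -0.18 and that in Col4a1 to Col4a2 from -0.01 to 0.07.

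Changes of sign against Sp3+/+ were, with upper quartile factors, Col18a1 (-0.02), Col24a1 (-0.03) and Col4a5 (-0.04). Signs were compared after rounding, so Col6a2, at 0.00 with these factors, was counted with them. DESeq2 gave Col23a1 0.02 and limma-voom Col4a5 -0.19. The suffix covariate gave Col15a1 -0.90 and Col18a1 -0.67. With 697-4 as suffix 2, Col15a1 was -1.37, Col18a1 -1.19, Col1a2 0.10, Col4a1 0.13 and Col4a2 0.11. With the block, Col23a1 was 0.34, Col24a1 -0.13, Col4a5 -0.09 and Col6a2 -0.45. Without suffixed libraries, Col15a1 was -1.37, Col18a1 -1.20, Col1a2 0.10, Col4a1 0.12 and Col4a2 0.10. Without 1 library, ranges were -0.14 to 1.76 for Col15a1, -0.17 to 0.91 for Col18a1, -0.51 to 0.38 for Col23a1, -0.22 to 0.40 for Col24a1, -0.06 to 0.81 for Col3a1, -0.61 to 0.02 for Col4a1, -0.45 to 0.34 for Col4a5, -0.07 to 0.80 for Col6a1 and -0.83 to 0.47 for Col6a2. Depth limits chains such as Col19a1, Col10a1 and Col2a1, with 1 to 27, 2 to 18 and 3 to 10 reads a library in Sp3-/-.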
